A study of Mus musculus with 4 samples.

Results

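The cells described here are 597 of 36876 barcodes (1.62%) from 4 single-cell libraries of mouse whole brain, and were chosen by the transcripts of 4 genes. A barcode was kept when it held at least 1000 UMIs (unique molecular identifiers, each counting 1 captured transcript) and at most 15.8% mitochondrial UMIs. It also had to hold at least 15 UMIs of Snap25, Syt1, Meg3 and Snhg11 together, fewer than 3 UMIs of Dcx and Sox11 together, and under 15 UMIs of C1qa, C1qb and C1qc per 10000. No upper limit was set on UMIs. The choice was made to hold mature neurons that lived through dissociation, and because the 4 genes are measured values of these same cells, their levels below are a description with no test. Checked against neuronal markers outside the rule, the name held for a minority of the selected cells: 200 of 597 (33.5%) fell in clusters that expressed these markers. Snap25, a gene of the rule and so no outside check, had no UMI in 348 cells (58.3%). The set is therefore called the 4-gene cells, and not neurons as a whole.

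The 4 libraries came from 4 male C57BL/6J mice, each perfused and each the only mouse of its age and diet, in a study of fermentable fiber and aging in the brain. Adult mice were 3 to 4 months old and aged mice 23 to 24 months old when they went on a diet with 1% cellulose and either 0% or 5% inulin, a fermentable fiber, for 8 weeks. All had first been fed a common diet for 8 weeks. Per the paper, adult mice were bred in house and aged mice were supplied by the National Institute on Aging. Age and source of the mice therefore cannot be told apart in any comparison of ages below. Brains were digested for 30 min at 37 °C, passed through a 70 µm strainer and depleted of myelin and of dead cells before droplet capture, steps that few mature neurons with long processes pass whole. With 1 mouse per age and diet, a comparison of ages set 2 mice against 2 with the diets pooled, so its p-values measure the spread between these mice. Values given for 4 mice run in 1 order throughout, namely adult 0%, adult 5%, aged 0% and aged 5% inulin.

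Mature neurons release transmitter from synaptic vesicles. SNAP-25, the product of Snap25, is 1 of the SNARE proteins that fuse these vesicles with the membrane, and synaptotagmin 1, the product of Syt1, is the calcium sensor that triggers the fusion. Meg3 and Snhg11 are long RNAs, named as noncoding, that are abundant in neurons of the brain, and Meg3 is an imprinted gene transcribed from the maternal chromosome in many tissues. Dcx and Sox11 mark young neurons and the C1q genes mark microglia, so the limits on them served to leave those cells out.

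The genes of the rule lie on 3 chromosomes (GRCm38, GENCODE annotation). Snap25 spans chr2:136713453-136782428 and Snhg11 chr2:158375638-158386145, both on the plus strand. The annotation lists Snhg11, the host gene of small nucleolar RNAs, as protein coding. Syt1 spans chr10:108497650-109010982 on the minus strand. Meg3, annotated as a long intergenic noncoding RNA, spans chr12:109541001-109571726 on the plus strand. RefSeq gives 2 start windows for Meg3. Since Meg3 carried most of the rule, the 150 bases before the first start (GRCm38.p6, chr12:109540846-109540995, plus strand) are shown, with capitals marking the single match of the cyclic AMP response element TGACGTCA, which was searched on both strands. The window of the second start held no match.
Meg3: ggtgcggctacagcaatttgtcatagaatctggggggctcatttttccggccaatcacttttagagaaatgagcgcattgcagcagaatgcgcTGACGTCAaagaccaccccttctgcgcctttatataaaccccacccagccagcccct
The same letters were found in 1.79% of 32851 RefSeq promoter windows of 300 bases, and the match is a description of the sequence alone.

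The libraries held 9246, 10256, 7881 and 9493 barcodes with 115814810, 111648775, 88248117 and 108131200 UMIs. The 4-gene cells numbered 126, 152, 155 and 164. They held 4518271, 4675154, 4820075 and 5187503 UMIs, 4.53% of all UMIs in 1.62% of the barcodes, so their mean depth was above that of all barcodes. The median over the 4-gene cells was 22278.5, 15764, 19032 and 16973 UMIs per cell, and single cells ranged from 1004 to 172904. Depth was uneven: the 200 cells of the clusters with neuronal markers, described below, had a median of 2920 UMIs. In 275 of 597 cells (46.1%) the count was over 22005 UMIs, the upper limit that the median absolute deviation sets for these libraries.

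Meg3 and Snhg11 met the count far more often than the synaptic genes. Meg3 alone reached 15 UMIs in 383 cells and Snhg11 alone in 186, against 35 for Snap25 and 26 for Syt1. Meg3 gave 60.5% of the summed UMIs of the rule, Snhg11 28.3%, Snap25 6.54% and Syt1 4.64%. The median sum was 24 UMIs and the highest 568. Meg3 was the sole gene of the rule detected in 112 cells and Snhg11 in 67, whereas 157 cells held all 4 genes. Both synaptic genes, Snap25 and Syt1, were at 0 in 303 cells.

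At the edges of the rule, the 61 cells with exactly 15 UMIs of the 4 genes had a median of 27544 UMIs, and 75.4% had no Snap25. The 54 cells just outside, with 14 UMIs, had a median of 28892 UMIs and 83.3% had no Snap25. At the limit on Dcx and Sox11, 36 cells held 2 UMIs of these genes and 16 cells that met everything else held 3. At the limit on C1q, 11 cells lay between 10 and 15 per 10000 and 6 cells between 15 and 20. The lower limit on depth left out 2 cells and the limit on mitochondrial UMIs left out 44.

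**Figure D1:**
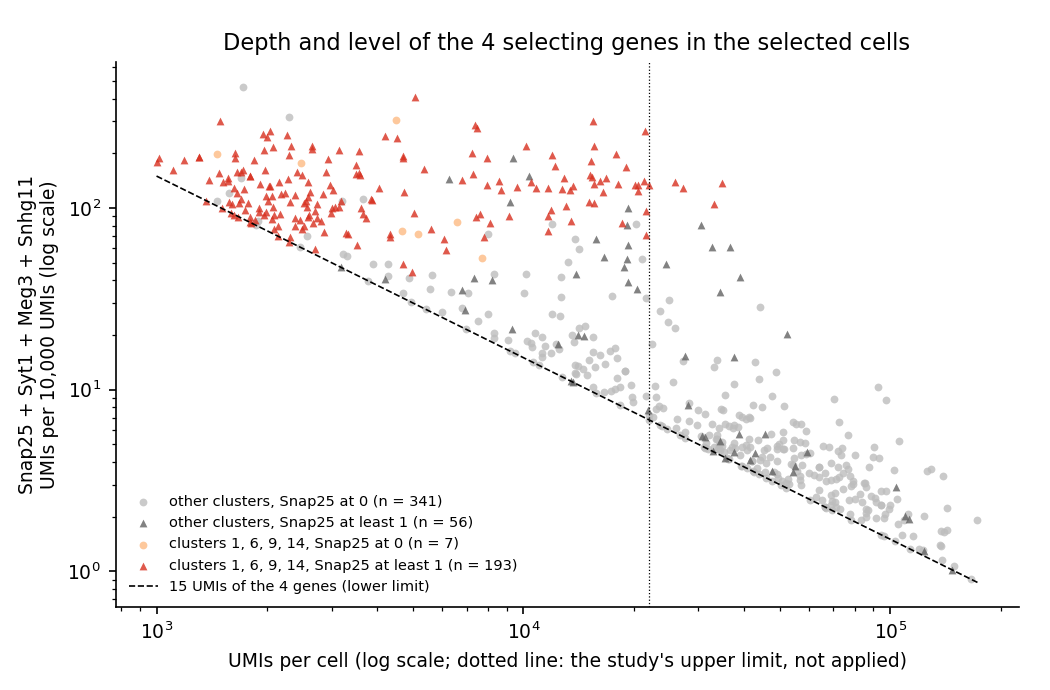
Each point is 1 of the 597 selected cells, with its UMIs per cell (log axis) against its UMIs of Snap25, Syt1, Meg3 and Snhg11 per 10000 UMIs (log axis). The dashed line marks 15 UMIs of the 4 genes, the dotted line 22005 UMIs, and triangles are cells with Snap25. The 200 cells of the clusters with neuronal markers (red and orange) lie at a median of 2920 UMIs well above the line, and the 397 others (gray) at a median of 37498 UMIs, many of them along it.

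Barcode sequences that occur in more than 1 library were counted before any comparison. There were 192 such sequences in 417 barcodes (1.13%). Among the 4-gene cells 30 (5.03%) carried one, and each was the deeper copy. The other copies held a median of 0.655% of its UMIs, from 0.536% to 57.0%. None of the 30 was in a cluster with neuronal markers and 12 were in cluster 8, described below. Scrublet, which scores doublets, called 11 of the 597 cells (7, 1, 1 and 2 by mouse).

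Clustering split the 597 cells into 15 clusters. In 4 of them, numbered 1, 6, 9 and 14, at least 10 of 20 pan-neuronal markers outside the rule were raised, a threshold set after the values were seen (14, 16, 13 and 11 of 20). These markers include Rbfox3, the antigen NeuN, the neurofilament gene Nefl and the synaptic vesicle gene Syp. The 4 clusters held 35, 44, 60 and 61 cells by mouse and 6.36% of the UMIs. Their cells held a median of 124.9 UMIs of the 4 genes per 10000, against a median of 5.70 in cells of the other clusters. Snap25 was at 0 in 7 of 200 cells against 341 of 397 (85.9%).

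To set depth aside, each cell was thinned to 2000 UMIs. Snap25 was then detected in 84.9% of the cells of the 4 clusters (152 cells, with 48 shallower ones left out) and in 5.88% of the other selected cells (391 cells, 6 left out). In endothelial cells of the same libraries, which should lack the gene, the share was 1.07% (9711 cells) and in microglia 0.750% (7202 cells). Meg3 was detected in 98.7%, 52.9%, 2.52% and 1.67% of the same classes in the same order. Snhg11 was detected in 88.2%, 26.6%, 0.556% and 0.805%, and Syt1 in 75.7%, 3.84%, 0.360% and 0.194%. Without thinning, the median depth was 7063 UMIs in endothelial cells and 6911 in microglia. All 4 genes are in the selecting sum, so the selection itself helps to set each above the unselected cells. This holds most for Meg3 and Snhg11, which gave most of the summed count. The clusters were also cut from the counts of these same cells, so the contrasts are a description. Snap25 and Syt1 were high in the 4 clusters and scarce in most of the others. In the other clusters of the adult 5% mouse, however, Snap25 was detected in 14.29% of thinned cells and Syt1 in 8.57%, and cluster 12, described below, held 7.43 UMIs of Snap25 per 10000, more than the 3.77 of cluster 9.

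**Figure D2:**
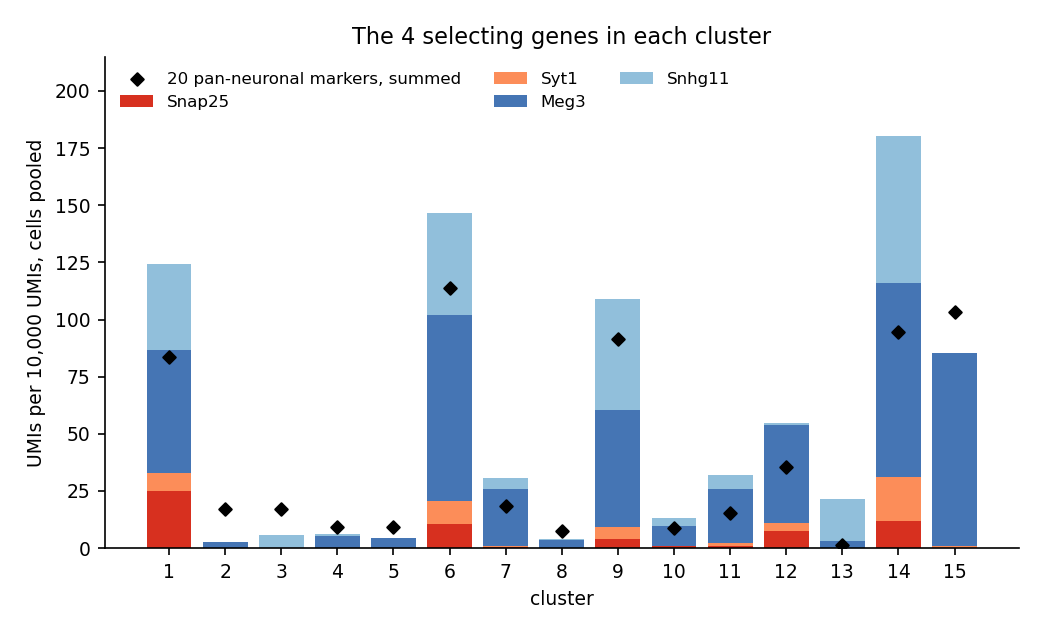
Stacked bars give UMIs of Snap25, Syt1, Meg3 and Snhg11 per 10000 UMIs in the pooled cells of each of the 15 clusters, and diamonds the sum of 20 pan-neuronal markers outside the rule. Clusters 1, 6, 9 and 14 have the highest sums of the 4 genes, from 108.8 to 180.4 per 10000, and Snap25 and Syt1 are visible in these and in cluster 12.

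Pan-neuronal markers outside the rule summed to 10040, 11810, 9379 and 9842 UMIs per 1000000 UMIs of a class (CPM) in the 4 clusters. The same list stood at 1564, 1457, 1254 and 1220 CPM in the other selected cells and at 674, 615, 657 and 658 CPM in endothelial cells. Genes of the synaptic vesicle and SNARE machinery summed to 6476, 8359, 8602 and 8624 CPM in the 4 clusters, against 290, 285, 299 and 284 CPM in endothelial cells. Voltage-gated sodium channel genes, which carry the action potential, summed to 1487, 1948, 1767 and 1566 CPM, and granins and peptide-processing genes to 3998, 5637, 5242 and 5844 CPM. Transcripts of other cells were also there: choroid plexus markers summed to 8132, 5374, 4190 and 3810 CPM in the 4 clusters, most of it Ttr. Ttr was detected in all 200 of these cells, in all 397 other selected cells and in 10034 of 10035 endothelial cells, and its part in the results was not tested.

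Cluster 1 was the largest, with 116 cells (19, 25, 39 and 33) and a median of 2116 UMIs, and was called cerebellar granule-like. All 9 granule cell markers were raised in it, and its leading genes included Gabra6, a GABA-A receptor subunit of granule cells, Cbln3, a secreted synapse organizer of the cerebellum, and the transcription factors Etv1 and Neurod1. Gabra6 was detected in 86 of the 116 cells, at 773, 943, 500 and 575 CPM. Cbln3 was detected in 98 and Zic1 in 108. Slc17a7, the vesicular glutamate transporter VGLUT1, was detected in 73 cells (62.9%), whereas Slc17a6, VGLUT2, was detected in 0 of 116, which allows up to 2.59% of cells with a UMI. Such a limit covers cells with a UMI at this depth and not cells that express the gene. Snap25 was present in 115 cells at 2297, 2207, 2545 and 2830 CPM. Sodium channel genes reached 2897 CPM in the pooled cells, with Scn2a the most abundant.

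Cluster 6 held 44 cells (4, 12, 12 and 16) with a median of 15252.5 UMIs and 146.7 UMIs of the 4 genes per 10000. Its leading genes included Sln, a regulator of the calcium pump, the granin Scg2 and Doc2g. It was left unnamed, with 16 of 20 pan-neuronal and 5 of 11 glutamatergic markers raised. Slc17a7 was detected in 39 cells, Doc2g in 34, Sln in 35 and Eomes, a transcription factor of glutamatergic lineages, in 38 at 487, 333, 319 and 447 CPM. Tbx21 was detected in 0 of 44 cells, which allows up to 6.82% of cells with a UMI.

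Cluster 9 held 29 cells (6, 4, 7 and 12) and was called Cajal-Retzius-like, after the early-born neurons of the cortical and hippocampal margin that secrete reelin. It had 7 of 8 markers raised. Reln was detected in all 29 cells at 2022, 2264, 4464 and 2551 CPM, Ndnf in all 29, Trp73, a p53 family member, in 20, Slc17a6 in 26 and Snap25 in 24.

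Cluster 14 held 11 cells (6, 3, 2 and 0) and had 7 of 11 GABAergic markers raised. Its 10 leading genes held Gad1 of the GABAergic list but Grin2b and Camk2a of the glutamatergic list, so it was left unnamed. Gad1, which makes GABA, was detected in all 11 cells at 1618, 1922 and 1167 CPM in the 3 mice that had any. Gad2 was detected in 9, Slc32a1, the vesicular GABA transporter, in 9 and the transcription factor Meis2 in 10. Slc17a7 was detected in 0 of 11, which at this number allows up to 27.3% of cells with a UMI. Glutamate receptor genes reached 9125 CPM in its pooled cells.

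**Figure D3:**
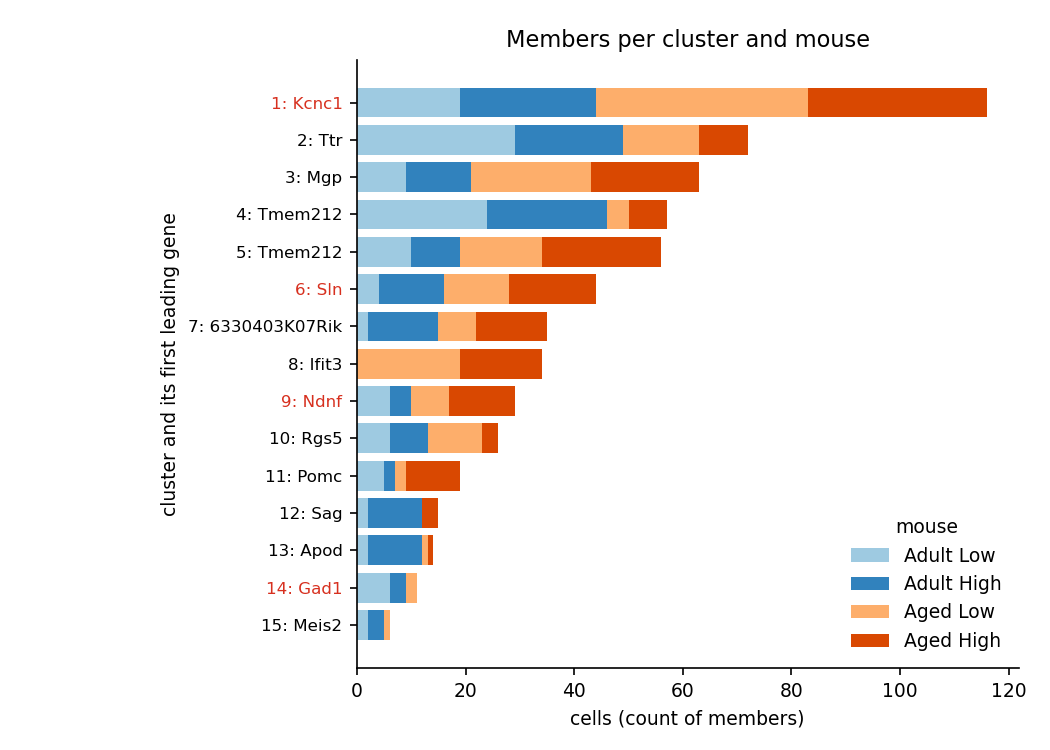
Stacked bars give the number of selected cells of each of the 15 clusters by mouse, labeled with its first leading gene (Low, 0% inulin; High, 5% inulin; red labels, clusters with neuronal markers). Cluster 8 holds cells of the aged mice alone (0, 0, 19 and 15) and cluster 1 is the largest with 116 cells.

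The other 397 cells, 91, 108, 95 and 103 by mouse, were mostly led by genes of other brain cells. Cluster 2, with 72 cells (29, 20, 14 and 9), was choroid plexus-like with all 8 markers raised. Its transthyretin transcript Ttr stood at 333600, 318200, 305800 and 296400 CPM, and 90.3% of its cells held no Snap25. Clusters 4 and 5 held 113 ependymal-like cells (34, 31, 19 and 29). Cluster 4 gave 24, 22, 4 and 7 of these and cluster 5 gave 10, 9, 15 and 22, so the pair ran opposite ways with age. Together with cluster 8, in which all 8 ependymal markers were raised as well, they held 147 cells (34, 31, 38 and 44), so the order of the ages depends on where cluster 8 is counted. Cluster 7 held 35 astrocyte-like cells and cluster 13 held 14 fibroblast-like cells. In all, 234 cells (39.2%) were in clusters named for cells other than neurons. That count leaves out unnamed clusters in which markers of other cells were raised too, among them clusters 8 and 10 (34 and 26 cells).

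A further 218 cells (36.5%) were in unnamed clusters, clusters 6 and 14 among them. Cluster 3, with 63 cells (9, 12, 22 and 20), was led by Mgp and Ccn3 and held Snhg11 in all 63 cells and Meg3 in 4. Cluster 8, with 34 cells (0, 0, 19 and 15) and a median of 64330.5 UMIs, was led by Ifit3, Isg15 and Ifit1, genes that interferon switches on, and all 34 cells held Foxj1, a regulator of motile cilia. All 8 ependymal markers were raised in it, and they summed to 10560 CPM in its pooled cells, beside 12250 and 11310 CPM in clusters 4 and 5. It was left unnamed only because no ependymal marker was among its 10 leading genes, and by these markers its cells were like those of clusters 4 and 5. Cluster 10, with 26 cells, had all 10 endothelial and all 8 mural markers raised. Cluster 11, with 19 cells, was led by Pomc and Chga. Of 8904 Pomc UMIs in the selected cells, 3 cells of the adult 0% mouse held 4024, 2477 and 2183. Cluster 12, with 15 cells (2, 10, 0 and 3), expressed Sag and Tph1 and 5 of 12 pituitary or pineal markers, and all 15 held Snap25. Cluster 15, with 6 cells, had 12 of 14 immature neuron, 9 of 11 GABAergic and 7 of 20 pan-neuronal markers raised and held no Snap25. Its pan-neuronal list still summed to 10340 CPM in the pooled cells, beside 8346, 11390, 9157 and 9462 CPM in clusters 1, 6, 9 and 14.

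**Figure D4:**
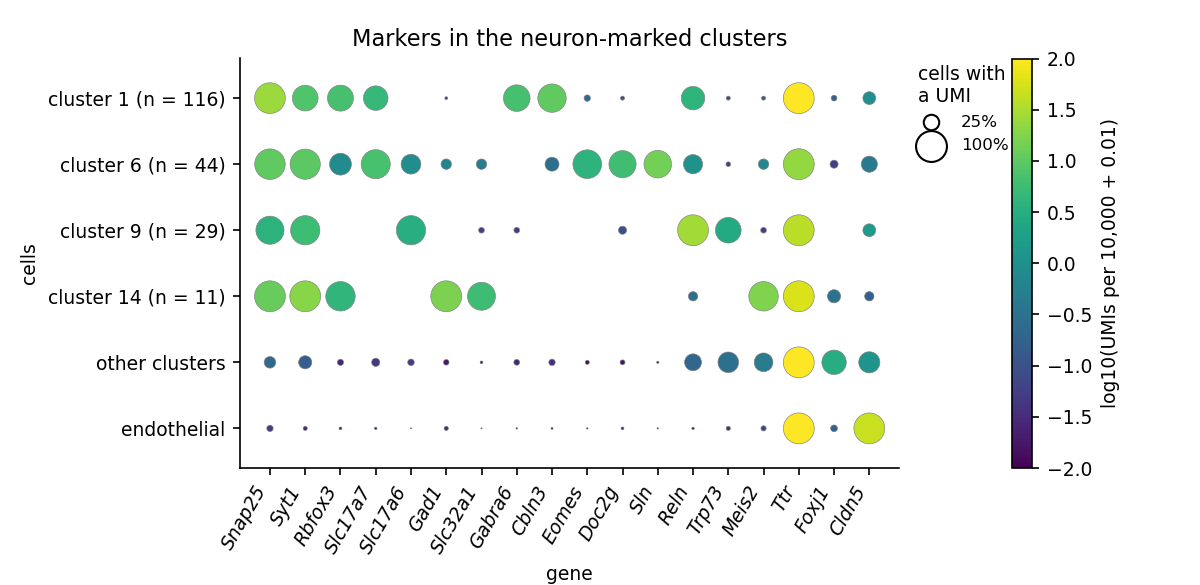
Marker genes (columns) in the 4 clusters with neuronal markers, the other selected cells and endothelial cells (rows), with dot size for the percentage of cells with a UMI and color for log10 of UMIs per 10000 plus 0.01. Gabra6 and Cbln3 are largest in cluster 1, Eomes, Doc2g and Sln in cluster 6, Reln and Trp73 in cluster 9 and Gad1 and Slc32a1 in cluster 14, while Ttr fills every row.

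The first comparison asked whether the number of 4-gene cells differed with age. They made up 1.36%, 1.48%, 1.97% and 1.73% of the barcodes, with exact Clopper-Pearson 95% intervals of 1.14 to 1.62, 1.26 to 1.74, 1.67 to 2.30 and 1.48 to 2.01, which cover counting error alone. The aged mice (1.85% ± 0.169, SD, n = 2) lay above the adult mice (1.42% ± 0.0844, n = 2) with no overlap, a difference of 0.425 percentage points. The exact two-sided permutation p was 0.333, the smallest that 2 mice against 2 allow (adjusted p = 0.523 over 11 comparisons). Cells with at least 15 UMIs of the 4 genes but 3 or more of Dcx and Sox11, which the rule leaves out, lay in the opposite order at 1.02%, 0.839%, 0.317% and 0.295% of barcodes.

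Transmitter transcripts were then read in each cell. A cell was called glutamatergic with at least 2 UMIs of the 3 vesicular glutamate transporters and more of these than of Gad1, Gad2 and Slc32a1 together, and GABAergic in the reverse case. These classes are ranges of a count and not types, and 464 of the 597 cells were in neither. Glutamatergic cells numbered 20, 31, 27 and 32, or 15.9%, 20.4%, 17.4% and 19.5% of the selected cells. The ages overlapped, with a difference of 0.332 points (exact permutation p = 1). By diet they did not overlap, at a mean of 16.6% without inulin and 3.31 points more with it, again with the smallest possible exact permutation p of 0.333. Both orders change without cluster 12, which gave 2, 8, 0 and 3 of the glutamatergic cells. Without it, a setting chosen after seeing the data, the shares were 14.5%, 16.2%, 17.4% and 18.01%, so that the diets overlapped and both aged mice lay above both adult mice. With 1 UMI in place of 2 they were 24.6%, 29.6%, 31.6% and 30.5%, again with both aged mice above. Of these 110 cells, 31 were in cluster 1, 38 in cluster 6, 20 in cluster 9 and 13 in cluster 12.

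GABAergic cells were few, 9, 8, 3 and 3 by mouse, or 7.14%, 5.26%, 1.94% and 1.83%. Both adult mice (6.20% ± 1.33, n = 2) lay above both aged mice (1.88% ± 0.0751, n = 2), a difference of -4.32 points with the smallest possible exact permutation p of 0.333. Among the 249 cells with Snap25 the shares were 17.02%, 9.38%, 2.86% and 1.47%, in the same order of ages. By cluster, 11 of the 23 were in cluster 14, 5 in cluster 6 and 3 in cluster 15. No test of genes within GABAergic cells was made, since no mouse had 20 of them.

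The second comparison asked which genes differed with age in the summed counts of the 4-gene cells. Summing over cells follows both the level per cell and the number of cells of each kind, and these cannot be told apart in the sums. EdgeR's quasi-likelihood test of 14961 genes called 212 higher in aged mice (1.42% of those tested) and 223 lower (1.49%), at a Benjamini-Hochberg adjusted p under 0.05 and a fold over 1.5. The median log2 fold change of all genes was 0.02. With cells over 22005 UMIs left out, 15 genes were called in the 322 cells that remained, 3 of them shared with the 435. In the 249 cells with Snap25 none was called. Without the adult 0% mouse 272 genes were called, without the adult 5% mouse 897, without the aged 5% mouse 145, and without shared barcodes 164.

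Genes of MHC class I and the interferon response were 15 of the 212 increases. Of 16 in the list, 15 were called higher (median log2 fold change 2.48), beside 1.42% of all genes, and no other list had more than 2 called higher. They included B2m, the light chain of MHC class I, H2-D1, H2-K1 and H2-Q7, the antigen-processing genes Psmb8 and Tap1, the transcription factor Irf7, and Bst2, Ifi27, Ifi27l2a, Ifit1, Ifit3, Ifitm3 and Isg15. The list summed to 1450 and 1651 CPM in the adult mice and 6498 and 8071 CPM in the aged mice, with Ifitm3 the most abundant gene. Cells of cluster 8, found in the aged mice alone, held 11430 and 19340 CPM, and 11820 and 13210 CPM without its 12 shared barcodes. With all shared barcodes left out, the list stood at 1430, 1637, 5897 and 6164 CPM and 14 of the 16 genes were called higher. Of the 14 list genes that could be tested in cells up to 22005 UMIs, edgeR called 0, with a median log2 fold change of 1.20. In cells thinned to 2000 UMIs 9 of 14 were called (median 1.80), and with at least 30 UMIs of the 4 genes 0 of 16 (median 2.63). Without that cluster the list stood at 1450, 1651, 4910 and 5333 CPM, so the ages still did not overlap. In the choroid plexus-like cells of cluster 2 it stood at 1282, 1492, 4960 and 7319 CPM, again with no overlap. Of 11 clusters with cells of all 4 mice, both aged mice lay above both adult mice in 9, and the ages overlapped in cluster 3 (2106, 2999, 2310 and 3064 CPM) and cluster 11 (1697, 3101, 1924 and 2143 CPM). Some of the 9 rest on few cells, such as cluster 13 (2, 10, 1 and 1 cells), cluster 4 (24, 22, 4 and 7) and cluster 10 (6, 7, 10 and 3). The clusters share the same 4 mice and were cut from the same counts, so they are not separate tests.

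Isg15, a ubiquitin-like protein induced by interferon, stood at 7.53 and 9.63 CPM in the adult mice and at 279 and 473 CPM in the aged mice. Both aged mice lay far above both adult mice, and the log2 fold change of 5.24 (SE 0.30) passed edgeR's test (adjusted p = 0.000822). Across the 15 alternatives the log2 fold change of Isg15 stayed between 1.54 and 5.57, with adjusted p from 8.89e-197 to 0.962. It missed the threshold without cells over the UMI limit (log2 fold change 1.54, adjusted p = 0.678), with at least 30 UMIs of the 4 genes (5.36, adjusted p = 0.125) and in cells with Snap25 (1.96, adjusted p = 0.962).

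Ifit3, which like Ifit1 blocks viral translation or signaling, stood at 26.1, 27.8, 498 and 721 CPM (log2 fold change 4.29, SE 0.20, edgeR adjusted p = 0.000640). Ifit1 stood at 18.6, 11.8, 362 and 591 CPM (4.75, SE 0.33, edgeR adjusted p = 0.00226). Neither overlapped between ages. Reads of Ifit3 can be split with its near-identical neighbor Ifit3b, so its count is less certain.
Of the other genes named for the largest increases, Oasl2, an oligoadenylate synthetase-like gene, rose from 11.5 and 12.2 to 241 and 355 CPM. Apol9a was counted in 1, 0, 250 and 331 UMIs and its close paralog Apol9b in 1, 2, 165 and 207, so the split between the pair is uncertain and no fold is given. Cxcl10, a chemokine that draws T cells, was counted in 1, 2, 103 and 602 UMIs, and 673 of the 708 were in cluster 8. Without shared barcodes 1, 2, 67 and 16 UMIs of Cxcl10 remained. Ifi44, Rsad2, Usp18, Iigp1 and Gm4951 were also among them, as was Krtdap, with 101 of its 102 UMIs in cluster 3.

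The promoters of Isg15 and Ifit1 are shown because both genes were among the largest increases. Each is the 150 bases before the RefSeq start in GRCm38.p6, Isg15 at chr4:156200819-156200968 on the minus strand and Ifit1 at chr19:34640739-34640888 on the plus strand. Capitals mark matches of GAAANNGAAA, the core of the interferon-stimulated response element, on either strand, with overlapping matches joined.
Isg15: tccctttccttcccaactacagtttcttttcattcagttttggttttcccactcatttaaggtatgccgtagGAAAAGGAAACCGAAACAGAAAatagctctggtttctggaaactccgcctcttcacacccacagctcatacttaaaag
Ifit1: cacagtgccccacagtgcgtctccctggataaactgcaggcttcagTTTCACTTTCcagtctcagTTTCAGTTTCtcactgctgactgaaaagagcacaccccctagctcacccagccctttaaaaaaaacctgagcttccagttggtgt
Isg15 holds 3 overlapping matches and Ifit1 holds 2. RefSeq windows of 300 bases around the start were found for 9 of the named increases. Of these genes, 6 held the motif (Apol9a, Apol9b, Cxcl10, Ifit1, Isg15 and Rsad2) and Ifi44, Krtdap and Oasl2 did not. Of all 27025 genes with a window, 3.99% held it in at least 1, as did 3.44% of the 32851 windows. A match is a description and not a binding site.

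In the 4 clusters with neuronal markers, these transcripts were scarce. Isg15 was counted in 2, 1, 3 and 10 UMIs, Ifit3 in 0, 1, 3 and 5, and Ifit1 in 0, 0, 3 and 3. The interferon list summed to 389, 294, 627 and 1022 CPM, with both aged mice above both adult mice, and B2m stood at 29.2, 46.7, 138 and 173 CPM. For comparison, the list stood at 4549, 6098, 7395 and 7113 CPM in endothelial cells and 3567, 3502, 7227 and 7652 CPM in microglia, so the neuronal clusters were the lowest of these classes in each mouse.

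**Figure D5:**
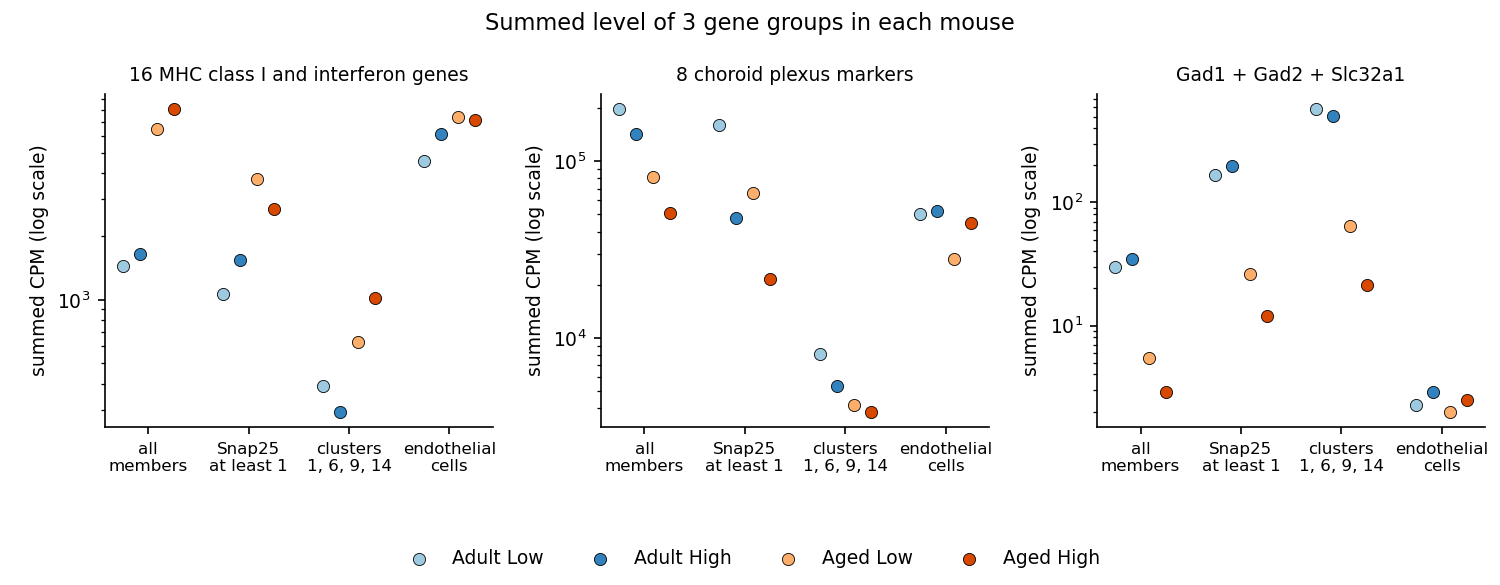
Summed CPM (log axis), 1 point per mouse, of 16 MHC class I and interferon genes, 8 choroid plexus markers, and Gad1, Gad2 and Slc32a1, in all selected cells, those with Snap25, clusters 1, 6, 9 and 14, and endothelial cells (Low, 0% inulin; High, 5% inulin). In all selected cells both aged mice lie above both adult mice for the interferon genes (6498 and 8071 against 1450 and 1651 CPM) and below them in the other 2 panels.

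Among the decreases were genes of the choroid plexus, chaperone and GABAergic lists. Of 8 choroid plexus markers 7 were called lower (Aqp1, Clic6, Enpp2, Folr1, Kcne2, Kl and Ttr; median log2 fold change -1.70), beside 1.49% of all genes. They summed to 198400, 142800, 81270 and 50870 CPM, while cluster 2 held 29, 20, 14 and 9 cells. Ttr itself had a log2 fold change of -1.58 (edgeR adjusted p = 0.0397). Within cluster 2 its level, given above, was 296400 to 333600 CPM in each mouse, with both aged mice below both adult mice. In microglia, which do not make it, Ttr stood at 47310, 38470, 9080 and 15910 CPM, also lower in both aged mice.

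Of 7 GABAergic genes tested, Gad1, Gad2 and Slc32a1 were called lower, beside 1.49% of all genes. Gad1 was counted in 73, 70, 15 and 5 UMIs, or 16.2, 14.97, 3.11 and 0.964 CPM (log2 fold change -3.14, SE 0.43, edgeR adjusted p = 0.0246). Gad2 was counted in 35, 61, 5 and 4 UMIs (-3.69, SE 0.42, adjusted p = 0.0148) and Slc32a1 in 28, 30, 6 and 6 (-2.57, SE 0.38, adjusted p = 0.0289). No aged mouse reached an adult one for any of them. In the 4 neuronal clusters Gad1 was counted in 70, 63, 12 and 3 UMIs, so nearly all of it lay there, and cluster 14 held 6, 3, 2 and 0 cells. Leaving out the adult 0% mouse raised the adjusted p of Slc32a1 to 0.0702, leaving out the aged 0% mouse to 0.0653 and leaving out the aged 5% mouse to 0.0964, while Gad1 and Gad2 stayed called without any 1 mouse. Both lost the call without cells over 22005 UMIs (edgeR adjusted p of 0.144 and 0.238), with at least 30 UMIs of the 4 genes (0.304 and 0.166) and with Snap25 required (0.962 for both), and Gad1 in thinned cells (0.172), at log2 fold changes from -4.47 to -2.42. Slc32a1 lost it in the same 3 selections too (adjusted p of 0.495, 0.401 and 0.962).

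Several of the other named decreases were of genes counted mostly in a few clusters. Arr3, the cone arrestin that the pineal gland also expresses, was counted in 20, 21, 1 and 1 UMIs, 42 of the 43 in cluster 12. Syt6 and Cpne4 lay mostly in clusters 6 and 14, Adarb2 in clusters 6, 14 and 15, and Tnfsf9 and Map3k15 mostly in cluster 2. Gm47171, Gm48898 and Gm49980 completed the named set. Among chaperones 5 of 12 were lower (Dnaja1, Dnajb1, Hspa5, Hspa8 and Hspb1), beside 1.49% of all genes, and in endothelial cells of the same mice 8 of 12 were, beside 0.26% of all genes. Of 22 nuclear-encoded respiratory chain genes, Ndufa1 and Ndufa4 were lower, beside 1.49% of all genes. Among 17 imprinted genes tested, 1 of which is the selecting gene Meg3, Nnat was higher and Peg3 and Rian were lower, beside 1.42% and 1.49% of all genes. Of 5 genes tested from the Purkinje list, the calcium-binding proteins Calb1 and Pvalb were higher, and both were raised in clusters 4, 5 and 8 with ependymal markers and in no cluster with neuronal markers. Itpr1, an intracellular calcium channel, was lower.

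Lists of general neuronal genes had few calls, as did all genes (1.42% higher and 1.49% lower). In edgeR's test 0 of 20 pan-neuronal markers, 24 synaptic vesicle and SNARE genes, 8 sodium channel genes, 14 calcium channel genes, 17 potassium channel genes and 15 glutamate receptor genes passed the threshold with age. Of 19 cytoskeleton and axon genes Kif1a, an axonal motor protein, was lower, and of 11 long noncoding RNAs of neurons Rian was lower. Median log2 fold changes were -0.05 for the pan-neuronal list and 0.18 for the vesicle list, against 0.02 for all genes. In these sums the 4 clusters with neuronal markers gave 6.36% of the UMIs and the other clusters 93.6%. No age test was run on those 4 clusters alone, so the counts say little about neuronal genes within them.

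Requiring at least 1 Snap25 UMI left 249 cells (47, 64, 70 and 68) and ended every age call. Of 10165 genes none was called by edgeR in either direction (0.0%), with 411 at an unadjusted p under 0.05, and DESeq2 called 4, all higher, namely Cga, Nbl1, Ifit3 and Ifit1. All 16 interferon genes still had a positive log2 fold change (median 1.48 against 0.00 for all genes), with the list at 1065, 1538, 3731 and 2703 CPM. Ifit1 had a log2 fold change of 3.30 and Gad1 of -3.10, both with an edgeR adjusted p of 0.962. Choroid plexus markers in these cells still summed to 160200, 47520, 66260 and 21490 CPM, and remained abundant beside Snap25.

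Within the 110 glutamatergic cells, edgeR called none of 6322 genes with age (0.0%), 569 had an unadjusted p under 0.05, and DESeq2 called 10. The call changed with diet as a covariate: edgeR then called genes, among them all 5 with the smallest p in the fit without diet. Kl, Sostdc1, Slco1a4 and Igfbp7, among the 5 with the smallest p, had log2 fold changes of -3.13, -3.39, -2.86 and -2.57 (each edgeR adjusted p = 0.219). Those are genes of the choroid plexus and vessels, and choroid plexus markers in the same cells summed to 81030, 54800, 2847 and 30570 CPM. With at least 1 UMI in place of 2 for the glutamatergic class, Sostdc1 and Igfbp7 turned to log2 fold changes of 0.013 and 0.57. The DESeq2 calls included Nnat, Rph3a, Sln and Doc2g, which were higher, and Hspa5, Kl, Sostdc1 and Prlr, which were lower. Doc2g stood at 92.8, 130, 660 and 337 CPM in the glutamatergic cells. Cluster 6, in which Doc2g was a leading gene, supplied 3, 9, 12 and 14 of the glutamatergic cells. Calls depended on the mice: 24 genes were called without the adult 0% mouse, 13 without the adult 5% mouse, 81 without the aged 0% mouse and 51 without the aged 5% mouse.

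The third comparison asked whether the age difference of the 4-gene cells differed from that of endothelial cells of the same mice, taken as barcodes with at least 10 UMIs of Cldn5 and Flt1 (10035 cells). An edgeR interaction test with the mouse as block, over 18299 genes, called 55 with a more positive age difference in the 4-gene cells (0.301%) and 2 with a more negative one (0.0109%), Slc6a20a and Ccnd2. The last pair were also called lower in the 4-gene cells themselves, with log2 fold changes of -2.11 and -1.65. Of the 57 called, 50 were also among the increases of the 4-gene cells, and 9 of 16 interferon genes were among the 55. Isg15 stood at 101, 135, 168 and 169 CPM in endothelial cells (log2 fold change 0.52), and the interaction was 4.72 (SE 0.27, edgeR adjusted p = 0.00217). Endothelial cells of adult mice already held more Isg15 than the 4-gene cells did, and the 4-gene cells of aged mice held more than endothelial cells. Endothelial cells alone gave 65 higher (0.375%) and 45 lower (0.26%) of 17324 genes, with Ifi27l2a the sole call in the interferon list. The interaction gave 0 calls without the adult 0% mouse, 1 without the adult 5% mouse, 345 without the aged 0% mouse and 97 without the aged 5% mouse. Restricted to the cells with Snap25 it gave 0.

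The fourth comparison asked whether 5% inulin changed the 4-gene cells. EdgeR called none of 14961 genes (0.0%), with 256 at an unadjusted p under 0.05, and DESeq2 called 5, all higher (Myoc, Chgb, Cga, Cck and Gh). Chgb, a granin of secretory granules, stood at 88.5 and 80.3 CPM at 0% inulin and at 348 and 555 CPM at 5% (log2 fold change 2.30, edgeR adjusted p = 1.00). Its diets did not overlap, and 2150 of its UMIs were in cluster 11 and 1696 in cluster 12. Tagln, a smooth muscle actin-binding protein, stood at 46.9 and 77.0 CPM at 0% and at 21.0 and 27.2 CPM at 5% (-1.43, edgeR adjusted p = 1.00). The others with the smallest p were Crabp1, Myoc and Hoxb3. In the glutamatergic cells none was called by edgeR, with 251 at an unadjusted p under 0.05.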

How the data were processed

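The 4 libraries were deposited as matrices of UMI counts per gene and barcode. Per the labels the authors used 10X Chromium 3′ chemistry and Cell Ranger 3.1.0 with GRCm38, and the counts are not normalized. Cells of 1 mouse are not replicates, so counts of the selected cells were summed per mouse and tested with edgeR 4.0.16 (R 4.3.3; filterByExpr, TMM factors, quasi-likelihood F-test, Benjamini-Hochberg adjustment over all genes tested). A call needed an adjusted p under 0.05 and a fold over 1.5. DESeq2 1.42.0, other scaling, other filters and each mouse left out were alternatives. CPM are UMIs per 1000000 UMIs of a class, while fold changes are on edgeR's TMM scale.

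The selected cells were clustered with scanpy 1.11.5 (counts scaled to 10000 UMIs, 2000 variable genes, 20 principal components, 15 neighbours, Leiden resolution 1). A marker counted as raised in a cluster when at least 25% of its cells held a UMI and it was at least 1.5-fold above the other selected cells. A cluster needed 3 such markers for a name. A cluster was left unnamed where its leading genes went against the name or held none of its markers. Scrublet used an expected rate of 0.08 per library, and its calls stayed in except in an alternative. The upper UMI limit was 3 median absolute deviations over the median and was an alternative alone.

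Named genes were those of the rule, up to 12 called increases and 12 decreases with the largest fold change and no overlap between the mice compared, the 5 with the smallest p where fewer than 5 were called, called genes of 45 lists with examples by level, and leading genes of clusters. The selected cells, lists and tests were chosen with earlier results of these data known. Gene positions are from GENCODE (55394 of 55573 identifiers matched) and promoters from RefSeq. The test scripts were tested on simulated data. Intervals cover counting error alone. A few genes of these lists and calls are not reported here.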

Additional observations from a re-analysis of the deposited data

Results flagged for a closer look

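The age difference of the 4-gene cells and that of endothelial cells from the same mice were compared with an edgeR interaction test, and 57 of 18299 genes differed between these classes (edgeR, adjusted p below 0.05, more than 1.5-fold). In 55 of them the age difference was more positive in the 4-gene cells and in 2 more negative. The count was 122 against microglia in place of endothelial cells and 0 for the 4-gene cells with Snap25.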

How the results depend on the processing

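The 435 age calls came to 1439 with no filter on low counts, 164 without shared barcodes, 26 in cells thinned to 2000 UMIs (20 of them among the 435), 15 without cells over 22005 UMIs, and 0 with at least 30 UMIs of the 4 genes or with Snap25 required. Without 1 mouse in turn they ranged from 145 to 897. DESeq2 gave 461, of which 347 were shared. The diet count of 0 came to 5 with DESeq2, 88 with no filter and 0 to 3 without 1 mouse (S100a9, Pomc and Retnlg, all lower, without the aged 0% mouse). In the cells with Snap25 the age count of 0 came to 4 with DESeq2, 253 with no filter and 0 to 1 without 1 mouse (Pomc, lower, without the adult 5% mouse). Within glutamatergic cells the age count of 0 came to 10 with DESeq2, 218 with no filter, 107 with diet as covariate and 13 to 81 without 1 mouse. The interaction count of 57 came to 122 against microglia, 0 with Snap25 required and 0 to 345 without 1 mouse.

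The age difference of 0.425 points in the share of barcodes was 0.218 without cells over 22005 UMIs, 0.182 and 0.665 with at least 30 and 10 UMIs of the 4 genes, 0.236 with Snap25 required and 0.305 to 0.544 without 1 mouse. The glutamatergic difference of 0.332 points was 3.95 with 1 UMI in place of 2, 5.20 in thinned cells and -1.93 to 2.59 without 1 mouse. The GABAergic difference of -4.32 points was -5.98 with 1 UMI, -11.0 among cells with Snap25 and -5.26 to -3.38 without 1 mouse. With 1 UMI in place of 2 for the glutamatergic class, the log2 fold changes of Sostdc1 and Igfbp7 turned to 0.013 and 0.57. The causes were not tested, apart from the fewer cells or genes that these settings leave. For the genes named, 306 values kept their direction and their side of the threshold, 84 lost the threshold, 34 gained it and 2 reversed.

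The replicate numbers pair no animals, since each age and diet has 1 mouse. The ages can be matched within each diet, and a fit with diet as a covariate gave 633 age calls in place of 435. The interaction test had the mouse as a block. A fit without 1 mouse assumes that the lone mouse of an age varies like the others. Leaving out cells with 10 or more UMIs of endothelial, oligodendrocyte or choroid plexus markers was not run, as it left 2 cells. Depth limits what can be said of the clusters with neuronal markers, which held a median of 2920 UMIs in 200 cells.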
